A study of Homo sapiens with 12 samples.

Results

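The small Cajal body RNAs SCARNA2, SCARNA7, SCARNA9 and SCARNA28 were examined in 12 iCLIP libraries of 3 RNA-binding proteins, TDP43, FOX2 (RBFOX2) and hnRNP M. They make up 4 of 97624 strand-specific regions that held signal in any library. They were chosen with their high TDP43 signal in WT cells already known, so their levels in WT libraries are given as a description, with no test between proteins. The members were taken by interval on the human build hg19, and the lists name transcripts by Ensembl identifier rather than by gene symbol. SCARNA2 covered chromosome 1 from 109642500 to 109643500 on the plus strand, SCARNA7 chromosome 3 from 160232400 to 160233300 on the minus strand and SCARNA9 chromosome 11 from 93454400 to 93455300 on the plus strand. SCARNA28 was taken as all signal in the region of chromosome 7 from 98470001 to 98480000 on the plus strand.

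Small Cajal body RNAs (scaRNAs) are noncoding RNAs that collect in Cajal bodies of the nucleus, where they base-pair with spliceosomal RNAs and direct their 2′-O-methylation or pseudouridylation. Most are cut from the introns of other genes, while SCARNA2 is transcribed as a gene of its own. TDP43 is a nuclear protein that binds GU-rich RNA and is known to associate with scaRNAs of the box C/D class, FOX2 regulates splicing through GCAUG elements, and hnRNP M is an abundant nuclear splicing factor.

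The cells were H9, an established human embryonic stem cell line, either P-KO, whose source label also carries the name SPA, or WT. All were irradiated with ultraviolet light at 400 mJ per square centimetre before immunoprecipitation, so that RNA was fixed to the protein it touched. The groups were TDP43 in P-KO and in WT cells, FOX2 in P-KO and in WT cells, and hnRNP M in P-KO and in WT cells, with 2 libraries each, described as biological replicates. Whether the P-KO cells came from 1 clone is not given in the sources used here, and markers of the cell line were not located in the lists and are not analysed here. Because each group has 2 libraries, the main edgeR fit estimated the spread from all 12 libraries together. The exact tests permuted genotype within each protein over the same 12. The p-values therefore speak for these libraries only.

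Each deposited list gives single nucleotides with a count that covers 5 nt on both sides. Counts of non-overlapping 11 nt windows were therefore summed and are called window counts; CPM scales them to a library total of 1000000. The libraries held 58191 to 648651 window counts, the 4 hnRNP M libraries being the shallowest. The lists omit counts below 2 and a last-column value above 0.05, so a member that a library leaves out is called listed at 0. No ratio of CPM is given where a group has such a library. Fitted log2 fold changes and the exact tests do include these libraries. As a check of the genotype labels, the region of chromosome 15 from 25000001 to 26000000 on the plus strand, which holds the SPA genes, took 0.053% to 0.160% of the window counts in the 6 P-KO libraries. It took 0.915% to 1.63% in the 6 WT libraries, without overlap.

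The 4 scaRNAs together took 2.65% ± 0.702 of all TDP43 window counts in P-KO cells and 4.23% ± 0.935 in WT cells (SD, n = 2 each). The library values were 2.16% (exact 95% interval 2.09 to 2.23) and 3.15% (3.09 to 3.21) in TDP43 P-KO, against 4.89% (4.80 to 4.98) and 3.57% (3.50 to 3.63) in TDP43 WT. These intervals cover counting error only and are narrower than the distance between replicates. In FOX2 libraries the sum was 0.108% ± 0.0174 in P-KO cells and 0.176% ± 0.0959 in WT cells. In hnRNP M libraries it was 0.0365% ± 0.0334 in P-KO cells and 0.0445% ± 0.0630 in WT cells. The sum was thus led by TDP43 in both genotypes, and 1 of the 2 hnRNP M WT libraries listed none of the 4.

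SCARNA2, which guides methylation of U2 spliceosomal RNA, had the highest level of the 4 in each TDP43 library. Its listed positions ran from 109642843 to 109643100, a span of 258 nt that falls well inside the interval, with 583 listed positions over the libraries at 137 distinct nucleotides. Of these, 577 were assigned to transcript ENST00000458748.1 and 6 to ENST00000602755.1, none of them intronic, and the opposite strand held none. SCARNA2 had 2954 and 7417 window counts in TDP43 P-KO, or 17113 and 25341 CPM, against 7849 and 8309 window counts in TDP43 WT, or 37774 and 29361 CPM. Both P-KO libraries lay below both WT libraries. Among all regions with signal, SCARNA2 ranked 1 and 3 in the TDP43 P-KO libraries and 1 and 3 in the TDP43 WT libraries.

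In FOX2 libraries SCARNA2 had 83 and 229 window counts in P-KO cells, or 357 and 353 CPM, against 397 and 233 in WT cells, or 1815 and 807 CPM. The 2 groups did not overlap, and the mean of P-KO was 0.271 times that of WT. In hnRNP M libraries SCARNA2 had 8 and 26 window counts in P-KO cells, or 129 and 447 CPM, against 0 and 92 in WT cells, or 0 and 745 CPM. These groups overlapped. TDP43 means exceeded FOX2 means 59.7 times in P-KO cells and 25.6 times in WT cells. The order of mean CPM was TDP43 WT, TDP43 P-KO, FOX2 WT, hnRNP M WT, FOX2 P-KO and hnRNP M P-KO. The ranges of the last 3 overlapped, with hnRNP M WT spanning 0 to 745 CPM.

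SCARNA7, which guides methylation of U1 spliceosomal RNA, lies within KPNA4, the gene of an importin alpha that carries proteins into the nucleus. All 577 listed positions, at 169 distinct nucleotides between 160232750 and 160233027, were assigned to intron 3 of ENST00000483437.1. SCARNA7 had 163 and 1198 window counts in TDP43 P-KO, or 944 and 4093 CPM, against 684 and 1099 in TDP43 WT, or 3292 and 3883 CPM. The P-KO libraries stood on both sides of the WT libraries. In FOX2 libraries SCARNA7 had 82 and 416 window counts in P-KO cells, or 353 and 641 CPM, against 63 and 67 in WT cells, or 288 and 232 CPM. Here P-KO was the higher group, without overlap, with a mean 1.91 times that of WT. In hnRNP M libraries it had 0 and 9 window counts in P-KO cells and 0 and 15 in WT cells. The order of mean CPM was TDP43 WT, TDP43 P-KO, FOX2 P-KO, FOX2 WT, hnRNP M P-KO and hnRNP M WT, and the ranges of the 2 TDP43 groups and of the 2 hnRNP M groups overlapped.

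SCARNA9, a guide for U2 spliceosomal RNA, lies within CEP295, the gene of a centrosomal protein. It had 195 listed positions between 93454678 and 93454957, of which 193 were assigned to intron 19 of ENST00000325212.6 and 2 to ENST00000364329.1. SCARNA9 had 129 and 186 window counts in TDP43 P-KO, or 747 and 635 CPM, against 328 and 162 in TDP43 WT, or 1579 and 572 CPM. It was the least bound of the 4 in TDP43 libraries, and the genotypes overlapped. In FOX2 libraries it had 5 and 49 window counts in P-KO cells, or 21.5 and 75.5 CPM, against 10 and 0 in WT cells, or 45.7 and 0 CPM. With hnRNP M it had 0 and 0 window counts in P-KO cells, against 0 and 3 in WT cells. The FOX2 genotypes overlapped too, as did FOX2 WT and hnRNP M WT, while both TDP43 groups stood above every FOX2 and hnRNP M library.

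SCARNA28 lies within TRRAP, the gene of a large scaffold protein of histone acetyltransferase complexes, where the microRNA gene MIR3609 overlaps it. Although its region is 10 kb wide, all 353 listed positions fell between 98479318 and 98479461, a span of 144 nt. Of these, 331 were assigned to intron 3 of ENST00000417523.1, 3 to intron 2 of ENST00000359863.4 and 19, between 98479318 and 98479337, to ENST00000582661.1. SCARNA28 had 478 and 419 window counts in TDP43 P-KO, or 2769 and 1432 CPM, against 1295 and 521 in TDP43 WT, or 6232 and 1841 CPM. In FOX2 libraries it had 52 and 86 window counts in P-KO cells, or 224 and 133 CPM, against 63 and 12 in WT cells, or 288 and 41.6 CPM. The genotypes overlapped for both proteins. SCARNA28 was listed at 0 in all 4 hnRNP M libraries, the only member of which this was true.

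**Figure D1:**
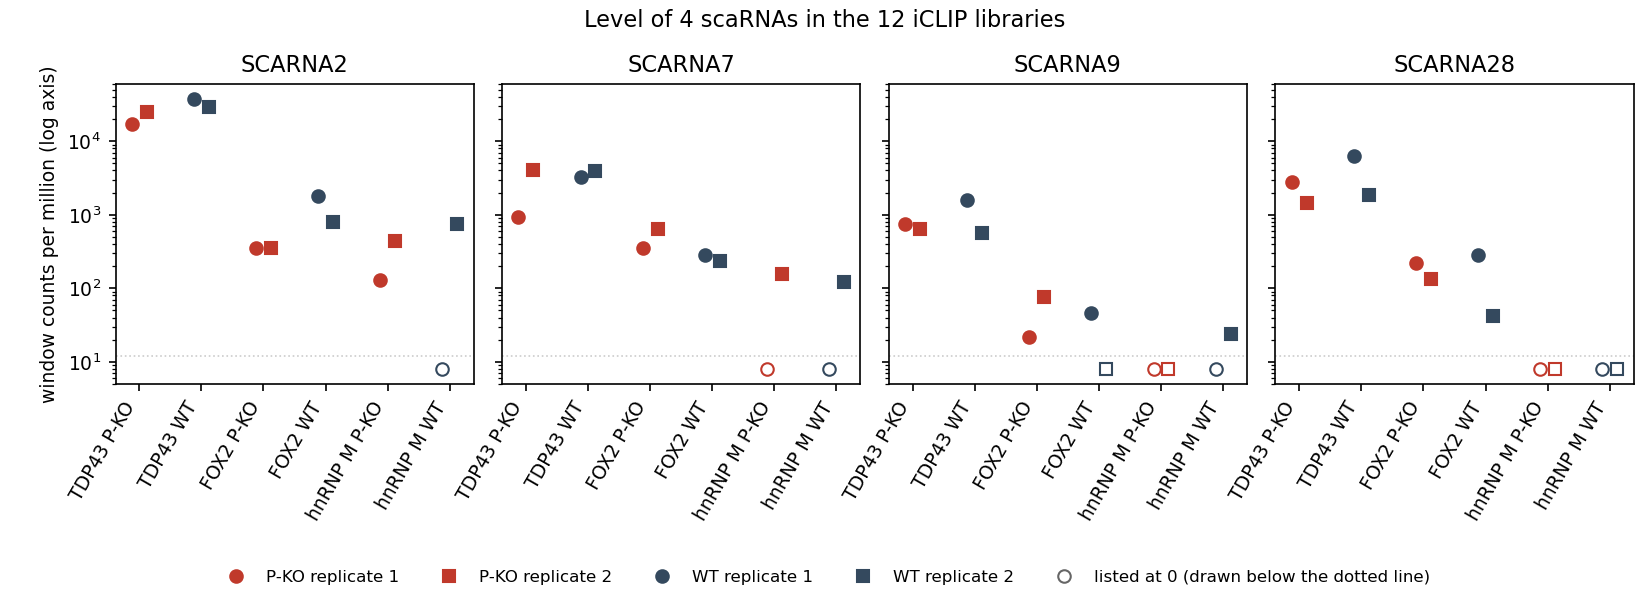
CPM (log axis) of each scaRNA in the 12 libraries, with circles for replicate 1 and squares for replicate 2, and open symbols below the dotted line for libraries that list the RNA at 0. In every panel the 4 TDP43 libraries stand above the FOX2 and hnRNP M libraries, and SCARNA28 is listed at 0 in all hnRNP M libraries.

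Since the spans differ, levels were compared between members per 100 nt of listed span. SCARNA2 had 8228 ± 2255 CPM per 100 nt in TDP43 P-KO and 13011 ± 2306 in TDP43 WT (SD, n = 2 each). SCARNA28 followed with 1459 ± 657 in TDP43 P-KO and 2803 ± 2156 in TDP43 WT. SCARNA7 had 906 ± 801 in TDP43 P-KO and 1291 ± 150 in TDP43 WT, and its libraries overlapped those of SCARNA28 in both genotypes. SCARNA9 had 247 ± 28.2 in TDP43 P-KO and 384 ± 254 in TDP43 WT. SCARNA2 stood above the other members and SCARNA9 below them in each TDP43 library. In FOX2 libraries the same quantity was 138 ± 1.22 for SCARNA2, 179 ± 73.3 for SCARNA7, 124 ± 44.9 for SCARNA28 and 17.3 ± 13.6 for SCARNA9 in P-KO cells. In WT cells it was 508 ± 276 for SCARNA2, 93.5 ± 14.2 for SCARNA7, 114 ± 121 for SCARNA28 and 8.16 ± 11.5 for SCARNA9. SCARNA9 was thus lowest with FOX2 as well, while SCARNA2 did not stand apart from SCARNA7 and SCARNA28 in FOX2 P-KO.

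The surroundings of the members, counted over exons and introns alike, carried less signal than the members in TDP43 libraries. In the 50 kb on each side of the interval, on the same strand, SCARNA2 had no listed window in 11 libraries and 6 window counts in FOX2 WT replicate 1. Around SCARNA7, TDP43 had 27 and 30 window counts in P-KO cells against 103 and 69 in WT cells. The interval itself held 85.8% and 97.6% of the local TDP43 window counts in P-KO cells and 86.9% and 94.1% in WT cells. The SCARNA7 surroundings were mostly exonic: positions assigned to exons of ENST00000334256.4 had 19 and 30 window counts in TDP43 P-KO, against 100 and 65 in TDP43 WT, and the P-KO libraries were lower without overlap. The listed exon positions of ENST00000334256.4 ran from 160214354 to 160283239, on both sides of SCARNA7, so this transcript spans the scaRNA as well. Positions of ENST00000483437.1, the transcript to which the SCARNA7 positions were assigned, had at most 2 window counts outside the interval in any library.

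Around SCARNA9, TDP43 had 7 and 10 window counts in P-KO cells against 5 and 16 in WT cells, and the interval held 94.9% and 94.9% of the local total in P-KO cells and 98.5% and 91.01% in WT cells. Around SCARNA28 the surroundings had 8 and 11 in TDP43 P-KO against 2 and 17 in TDP43 WT, and the interval held 98.4% and 97.4% against 99.8% and 96.8%. FOX2 was less concentrated where the member itself was low. SCARNA9 held 55.6% and 84.5% of the local FOX2 window counts in P-KO cells against 50% and 0% in WT cells. In hnRNP M libraries the surroundings of SCARNA9 had 0 and 17 window counts in P-KO cells and 10 and 8 in WT cells, which is more than the member itself had in 3 of the 4 libraries. At the 3 hosted scaRNAs, then, 85.8% to 99.8% of the local TDP43 window counts lay in the scaRNA interval.

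**Figure D2:**
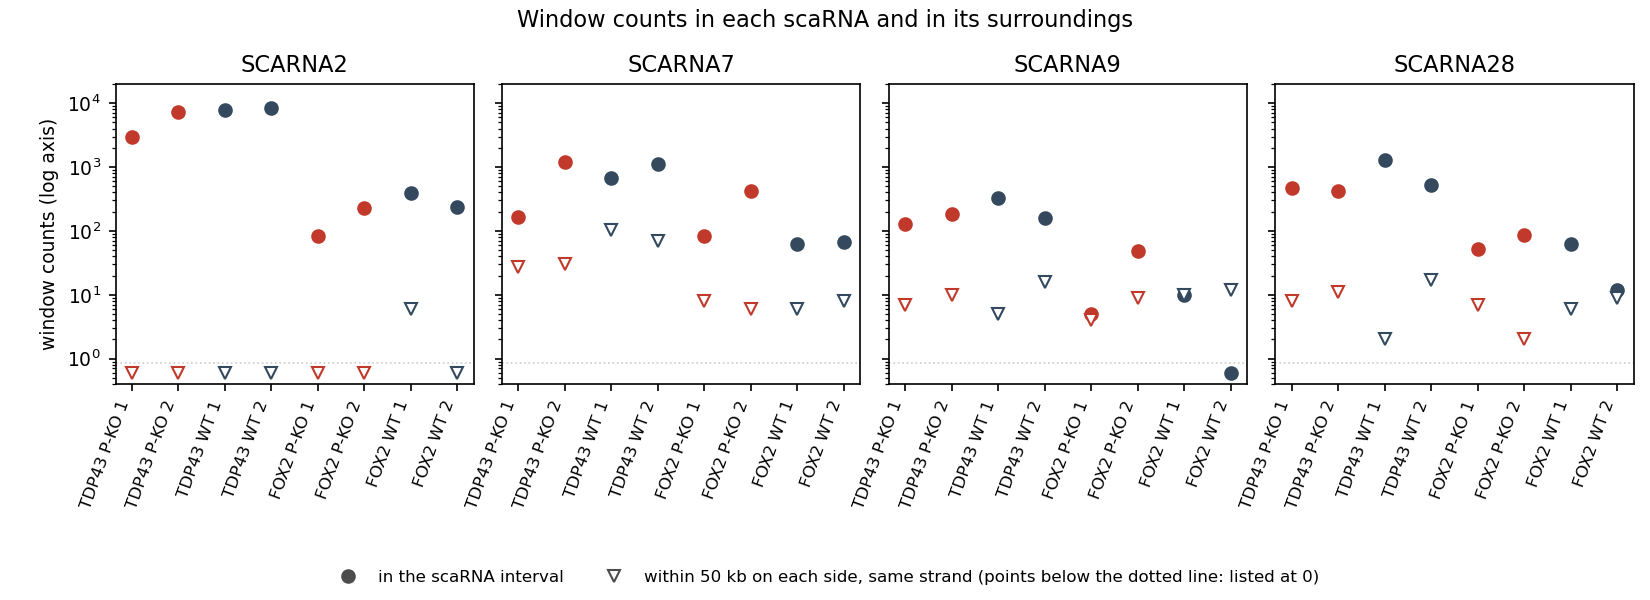
Window counts (log axis) inside each scaRNA interval (filled circles) and within 50 kb on each side on the same strand (open triangles) in the TDP43 and FOX2 libraries, with P-KO libraries in red and WT libraries in dark grey. In all 8 TDP43 and FOX2 libraries SCARNA2 stands above its surroundings, whereas SCARNA9 is near or below its surroundings in 3 FOX2 libraries.

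Along SCARNA2 the signal formed a broad block from 109642864 to 109642960 and 3 short stretches after it, beside a single position at 109642843 listed in hnRNP M P-KO replicate 1 alone. The block held 94.0% and 88.8% of the SCARNA2 window counts in TDP43 P-KO against 94.7% and 87.0% in TDP43 WT. Which short stretch was listed followed the replicate number rather than the genotype. The stretch from 109642979 to 109642989 had 176 window counts in TDP43 P-KO replicate 1 and 416 in TDP43 WT replicate 1, and was listed at 0 in replicate 2 of both. The stretch from 109643039 to 109643057 had 425 in TDP43 P-KO replicate 2 and 621 in TDP43 WT replicate 2, and that from 109643092 to 109643100 had 408 and 456. Both were listed at 0 in replicate 1 of both genotypes. FOX2 followed the same division where it was listed: the first of these stretches appeared with 27 window counts in FOX2 WT replicate 1, and the last in replicate 2, with 31 for FOX2 P-KO and 22 for FOX2 WT. The libraries of the 2 numbers also differed in the share of window counts on the mitochondrial genome and the ribosomal contig, which was 0.468% to 3.17% in replicate 1 and 3.33% to 8.40% in replicate 2, and higher in replicate 2 in all 6 groups. Its part in the profiles was not tested.

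Within the block the highest position also moved with the replicate number. It lay 76 nt from position 109642843, the first listed in any library, in TDP43 P-KO replicate 1, TDP43 WT replicate 1 and FOX2 WT replicate 1. It lay 54 nt from that position in TDP43 P-KO replicate 2, TDP43 WT replicate 2 and FOX2 WT replicate 2. FOX2 P-KO peaked at 91 nt in replicate 1 and 108 nt in replicate 2. Positions with low counts are missing from these profiles, since the lowest listed count inside SCARNA2 was 130 and 302 in TDP43 P-KO and 324 and 322 in TDP43 WT, whereas it was 12 to 23 in FOX2. An absent stretch in a TDP43 library is thus a stretch below about that count, not one shown to be empty.

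**Figure D3:**
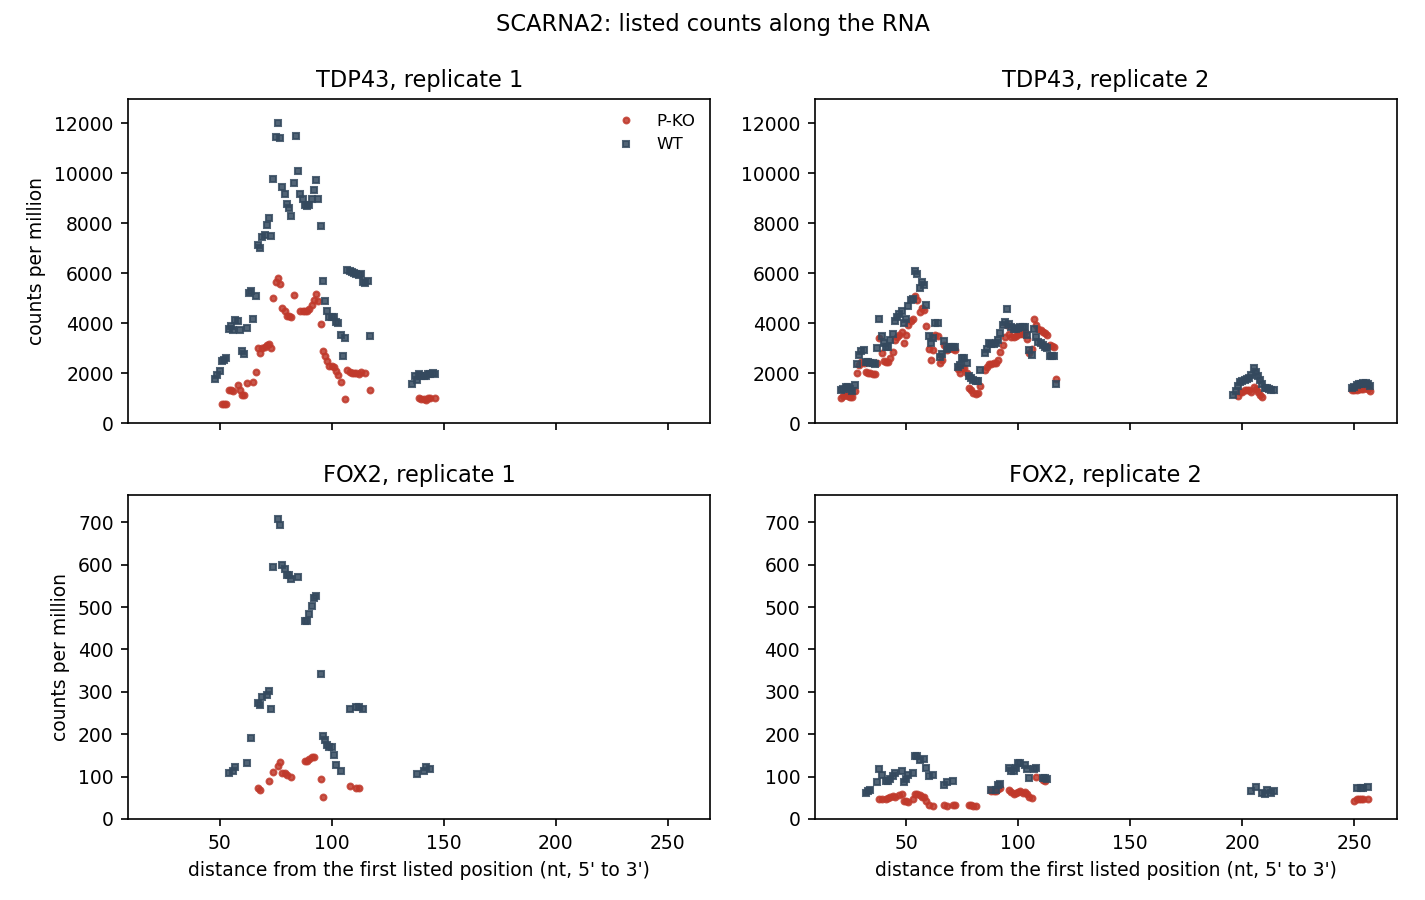
Counts in CPM at each listed position of SCARNA2 against the distance in nt from its first listed position, for TDP43 (top) and FOX2 (bottom), replicate 1 (left) and replicate 2 (right), with P-KO as red circles and WT as dark squares. P-KO and WT of one number share their shape, with the TDP43 peak at 76 nt in replicate 1 and at 54 nt in replicate 2.

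The likeness of the profiles was described by Pearson's r across the listed positions of a member, with an unlisted position set to 0. These positions are neighbours within 1 RNA and share libraries, so no p is given. For SCARNA2, TDP43 P-KO and WT libraries of the same number had r of 0.882 and 0.951, against 0.227 to 0.321 for TDP43 libraries of different number. FOX2 and TDP43 libraries of the same number had r of 0.522 to 0.729, against -0.042 to 0.190 for those of different number. The profile of SCARNA2 was therefore more alike between different proteins of 1 replicate number than within TDP43 across numbers.

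The same order held for SCARNA28. TDP43 libraries of the same number had r of 0.730 and 0.826, against -0.151 to -0.013 for different numbers, and FOX2 with TDP43 had 0.206 to 0.873 against -0.193 to 0.088. The highest TDP43 position lay 124 nt (P-KO) and 126 nt (WT) from the first listed position in replicate 1, but 104 nt (P-KO) and 102 nt (WT) in replicate 2. For SCARNA7 the ranges overlapped: TDP43 libraries of the same number had r of 0.576 and 0.790, against 0.292 to 0.699 for different numbers. Its 6 nt stretch at 160233022 to 160233027 was listed in TDP43 replicate 1 alone, with 8 window counts in P-KO and 14 in WT.

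SCARNA9 kept its highest position at 260 and 261 nt in TDP43 P-KO and at 259 and 260 nt in TDP43 WT, whatever the number. Its secondary stretches again differed. The stretch from 93454796 to 93454838 held 45.7% and 19.9% of the SCARNA9 window counts in TDP43 P-KO, against 39.9% and 0% in TDP43 WT. The stretch from 93454696 to 93454713 was listed at 0 in replicate 1 of both genotypes. In replicate 2 it held 11.3% in P-KO and 28.4% in WT. TDP43 libraries of the same number had r of 0.572 and 0.774 at SCARNA9, against 0.199 to 0.513 for different numbers, without overlap. FOX2 with TDP43 had 0.047 to 0.566 against -0.028 to 0.347, and these ranges overlapped.

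**Figure D4:**
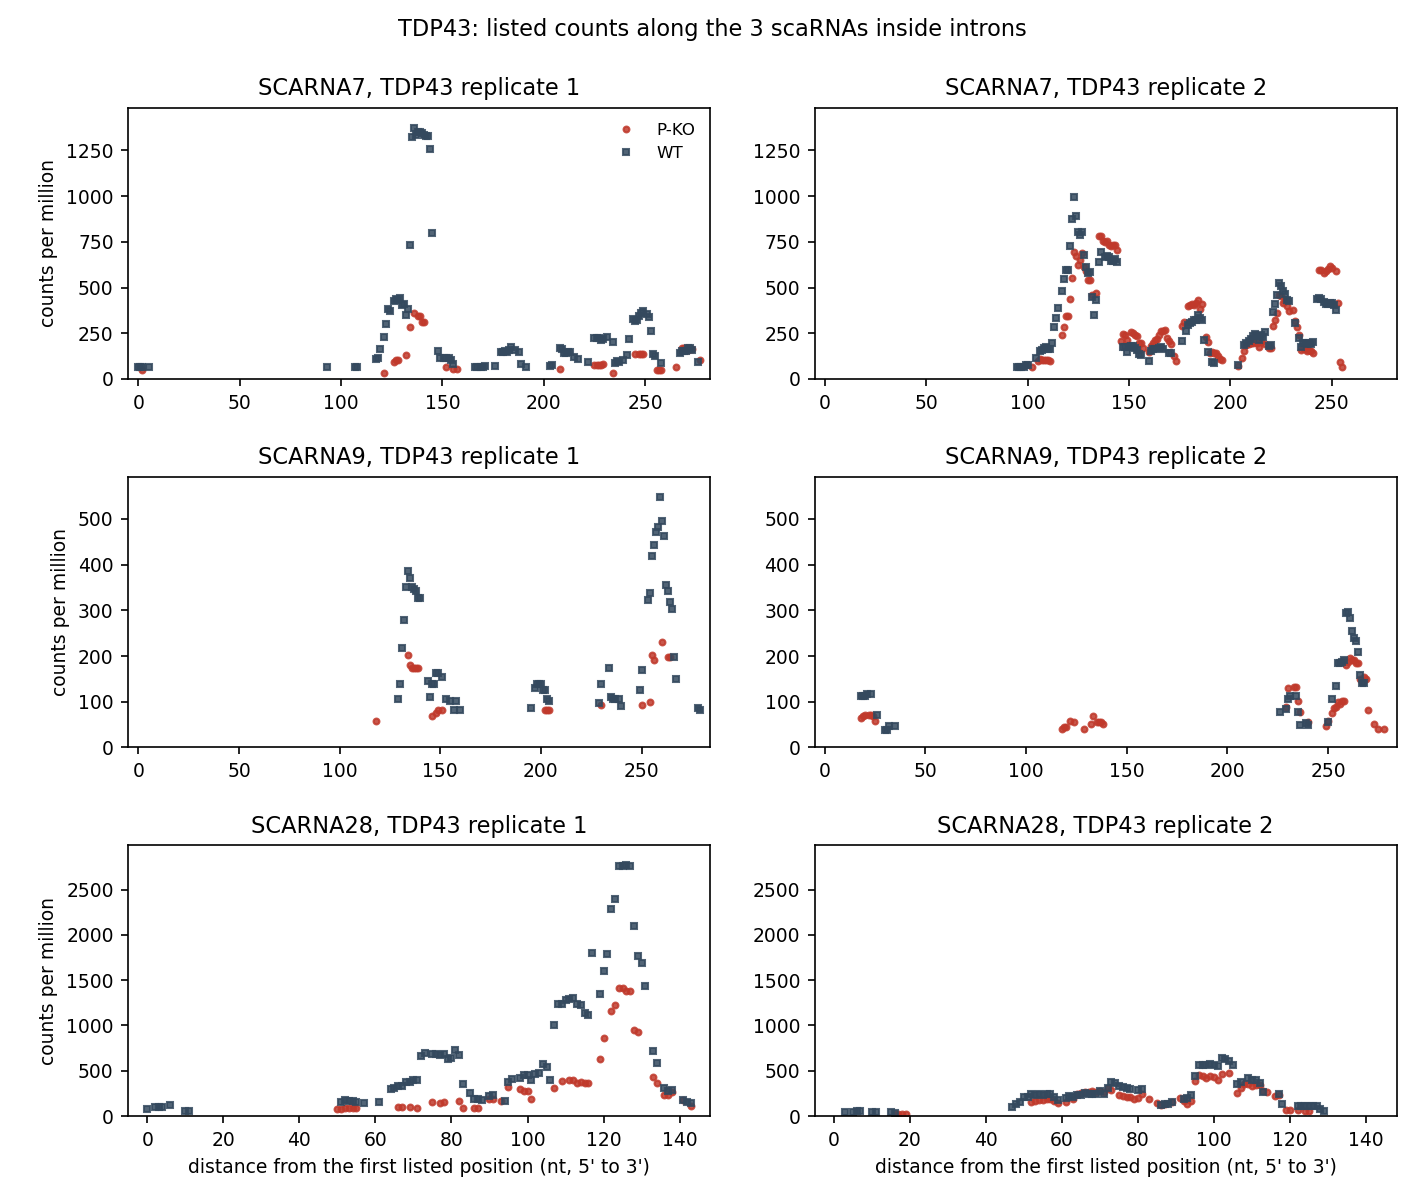
Counts in CPM at each listed position of SCARNA7, SCARNA9 and SCARNA28 in TDP43 libraries against the distance in nt from the first listed position, replicate 1 at left and replicate 2 at right, with P-KO as red circles and WT as dark squares. SCARNA9 peaks at 259 to 261 nt in both numbers, while the SCARNA28 peak is at 124 and 126 nt in replicate 1 and at 104 and 102 nt in replicate 2 (P-KO and WT).

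**Figure D5:**
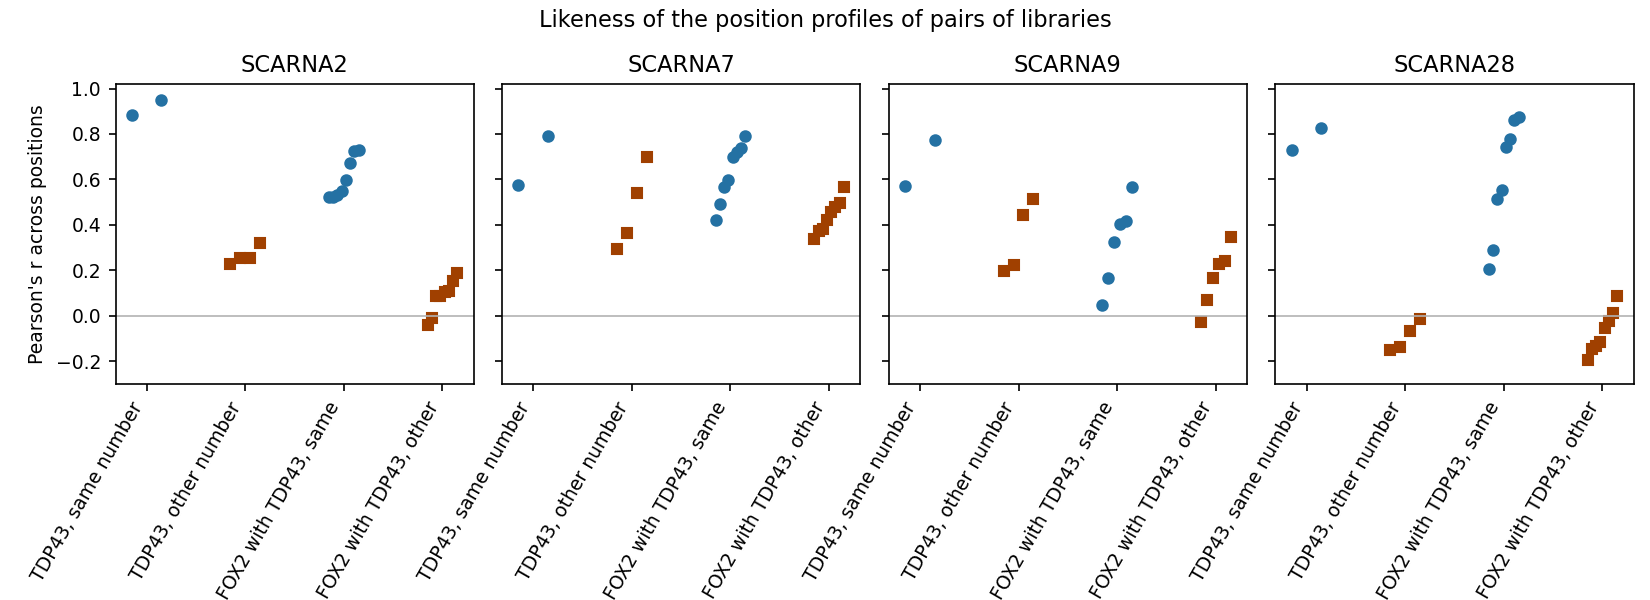
Pearson's r between the position profiles of pairs of libraries, for TDP43 libraries and for FOX2 with TDP43, with the same replicate number (blue circles) or different numbers (brown squares); each point is 1 pair. For SCARNA2 and SCARNA28 all same-number points lie above all points of different number, as they do for TDP43 pairs at SCARNA9; for SCARNA7, and for FOX2 with TDP43 at SCARNA9, they overlap.

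FOX2 and TDP43 windows were next set side by side. Both lie in the same short spans, such as the block of SCARNA2, which bears on how often windows overlap, and no share for windows placed independently was computed. On average 90.7% ± 13.6 of the FOX2 windows at SCARNA2 overlapped a TDP43 window of another library by 1 nt or more (SD over 16 pairs of libraries, which share libraries). The share was 91.5% ± 10.5 at SCARNA7, 75.0% ± 28.0 over 12 pairs at SCARNA9 and 96.9% ± 8.54 at SCARNA28. With at least 6 nt shared the means were 79.4%, 80.2%, 70.8% and 80.0% in that order, and single pairs at SCARNA28 went down to 0%. The reverse share was lower, as TDP43 had more windows: 71.9% ± 18.4 of TDP43 windows met a FOX2 window at SCARNA2, 65.0% ± 15.5 at SCARNA7, 29.1% ± 16.8 at SCARNA9 and 53.7% ± 19.3 at SCARNA28. Position 109642935, the second highest in FOX2, had 854 and 837 counts in TDP43 P-KO and 1938 and 1027 counts in TDP43 WT, while its counts were 34 and 47 with FOX2 in P-KO cells, against 114 and 24 with FOX2 in WT cells. It was thus listed in all 8 libraries of these proteins, and in hnRNP M in WT replicate 2 alone, with 43.

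The comparison of P-KO with WT asked whether contacts at the scaRNAs changed with the genotype. No member passed edgeR's quasi-likelihood test, fitted over 10563 regions with Benjamini-Hochberg adjustment at 0.05. For TDP43, 0 of 4 members were called, against 0.0284% of all regions tested, and all 4 fitted fold changes were negative. The members were chosen with their high TDP43 signal in WT cells known, so this shared sign is not read as a genotype effect. The log2 fold changes were -0.69 for SCARNA2, -0.49 for SCARNA7, -0.67 for SCARNA9 and -1.01 for SCARNA28, with standard errors of 1.35 to 1.47 (taken as the fold change over the root of F). Their median was -0.68, beside 0.03 over all regions, and the edgeR adjusted p was 1.00 for each. In CPM, P-KO means were 0.632, 0.702, 0.643 and 0.520 times the WT means in the same order. Replicate 1 of P-KO was at 0.287 to 0.473 times replicate 1 of WT over the 4 members, and replicate 2 of P-KO at 0.778 to 1.11 times replicate 2 of WT.

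For FOX2, 0 of 4 members were called, against 0.0189% of all regions. The log2 fold changes were -1.69 ± 1.51 for SCARNA2, 1.17 ± 1.39 for SCARNA7, 1.52 ± 1.45 for SCARNA9 and 0.29 ± 1.38 for SCARNA28 (SE), each with an edgeR adjusted p of 1.00. SCARNA2 and SCARNA7, the 2 members whose FOX2 groups did not overlap, thus had fitted changes of opposite sign, each close to its standard error. The share of all regions whose P-KO and WT groups did not overlap was not computed, for FOX2 or for the other proteins. For hnRNP M, 0 of 4 were called against 0.0473% of all regions, but SCARNA28, listed at 0 in every hnRNP M library, could not be called. The smallest edgeR adjusted p there was 0.401 for SCARNA9, of which a single WT library listed 3 counts. For the effect common to the 3 proteins, 0 of 4 were called against 0.123%, and SCARNA2 had a log2 fold change of -1.28 ± 0.854 (SE, unadjusted p = 0.133, edgeR adjusted p = 1.00). The other 3 lay between -0.35 and 0.03. The difference of the genotype effect between proteins was called for 0 of 4 members and 0% of all regions, with edgeR adjusted p of 0.797 to 1.00.

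In these 5 genotype comparisons no member had an unadjusted p under 0.05, and DESeq2 called none. In simulated counts made from these libraries, the test of the common effect recovered 0 of 197 regions lowered 8-fold and 126 of 195 lowered 32-fold. The simulated regions all had the same spread and, before lowering, 1 level across the proteins. The members' levels differ between proteins, so the simulation gives no limit of detection for the members themselves. Exact permutation tests of the log2 share of the library in each member, with genotype permuted within each protein, gave mean differences of -0.25 for SCARNA2, 0.07 for SCARNA7, 0.30 for SCARNA9 and 0.13 for SCARNA28. The two-sided exact p was 0.880, 0.907, 0.852 and 0.824 in that order, the smallest possible being 0.00926. At SCARNA28, listed at 0 in every hnRNP M library, the hnRNP M part is only the pseudocount over the library totals. The sign of its 0.13 is therefore not read. The hnRNP M libraries listed at 0 weigh heavily here: without hnRNP M WT replicate 1 the SCARNA2 difference was -1.34 (exact p = 0.0278), while without hnRNP M WT replicate 2 it was 0.83 (exact p = 0.648). Relative to their surroundings the members differed by 0.36, 0.28, 1.15 and 0.61 on the log2 scale, with exact p of 0.870, 0.833, 0.435 and 0.583. For SCARNA2 the surroundings were listed at 0 in every library but FOX2 WT replicate 1. Its value of 0.36 thus sets counts not scaled for depth against the pseudocount, and cannot show a move against its surroundings. The hnRNP M part of the SCARNA28 value holds no counts of the member either.

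The proteins were then compared within P-KO cells, since the members had been chosen on WT libraries, though with earlier results of these data known. Both comparisons with hnRNP M share its 2 P-KO libraries. TDP43 was higher than hnRNP M at SCARNA2 and SCARNA7 by edgeR, with 0.824% of all regions called, each of them higher with TDP43. The log2 fold change was 7.94 ± 1.99 (SE) for SCARNA2 (edgeR adjusted p = 0.0232) and 6.77 ± 1.79 for SCARNA7 (edgeR adjusted p = 0.0354). In hnRNP M P-KO, SCARNA2 had 8 and 26 window counts, so its call rests on few hnRNP M counts. SCARNA7 was listed at 0 in replicate 1 and had 9 in replicate 2, so its fold change rests partly on an unlisted value. SCARNA9 and SCARNA28 were listed at 0 in both hnRNP M P-KO libraries and entered the fit through the libraries of the other proteins, so their calls, which bring the count to 4 of 4, are not read as support. The median over all regions was 1.39. Without TMM, edgeR's scaling between libraries, the changes were 6.40 and 5.20 and both were called. No member was called with edgeR's robust option or in a fit of only the libraries compared, and neither SCARNA2 nor SCARNA7 with at least 20 counts in 2 libraries. Both calls were also lost without any 1 of FOX2 WT replicate 1 or 2, FOX2 P-KO replicate 1 or 2, TDP43 P-KO replicate 2 or hnRNP M P-KO replicate 1 or 2, with edgeR adjusted p of 0.0916 to 0.555. SCARNA2 was not called without TDP43 P-KO replicate 1 either, nor SCARNA7 without TDP43 WT replicate 1 or 2.

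TDP43 against FOX2 in P-KO cells gave 0 of 4 calls by edgeR, against 1.64% of all regions called in either direction and 0.161% higher with TDP43. The log2 fold changes were 5.57 ± 1.78 (SE) for SCARNA2 (edgeR adjusted p = 0.0712), 2.01 ± 1.42 for SCARNA7 (0.477), 3.29 ± 1.47 for SCARNA9 (0.226) and 3.20 ± 1.48 for SCARNA28 (0.243). The median over all regions was 0.40. The CPM ranges of the 2 proteins did not overlap at any of the 4, though how many of all regions lacked overlap was not computed. An unadjusted edgeR p under 0.05 was found for 3 members, and for 1767 of the 10563 regions tested. DESeq2, which called 667 regions here, called the same 3 members, SCARNA2, SCARNA9 and SCARNA28. These were also called by edgeR without TMM, with log2 fold changes of 6.33, 4.27 and 3.99. SCARNA2 was also called without either hnRNP M WT library, so its side of the threshold depended on libraries outside the comparison. Between TDP43 and FOX2 libraries of the same number in P-KO cells, the CPM ratio was 47.9 and 71.8 for SCARNA2 but 2.67 and 6.38 for SCARNA7.

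FOX2 against hnRNP M in P-KO cells called SCARNA7 and not SCARNA2, with 9.82% of all regions called and 9.79% higher with FOX2. The median log2 fold change over all regions was 1.13. SCARNA7 had a log2 fold change of 4.76 ± 1.64 (SE, edgeR adjusted p = 0.0426). This too rests partly on an unlisted value, as hnRNP M P-KO replicate 1 listed SCARNA7 at 0 and replicate 2 had 9 window counts. The calls of SCARNA9 and SCARNA28, which bring the count to 3 of 4, are again not read as support, since both were listed at 0 in hnRNP M P-KO. SCARNA2 had a log2 fold change of 2.37 ± 1.56 (edgeR adjusted p = 0.305), and its ranges of 353 to 357 CPM with FOX2 and 129 to 447 CPM with hnRNP M overlapped. The TMM factors were 0.610 and 0.371 for FOX2 P-KO, against 3.02 and 2.16 for hnRNP M P-KO. Without TMM SCARNA7 was at 2.43 (edgeR adjusted p = 0.159) and SCARNA2 at 0.07, so the call of SCARNA7 depended on this scaling. SCARNA7 was not called with the robust option or in a fit of only the libraries compared either. Its call was lost without any 1 of the FOX2 and TDP43 libraries or either hnRNP M P-KO library, with edgeR adjusted p of 0.0597 to 0.457, and remained without either hnRNP M WT library.

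Across the 12 libraries, the members' log2 CPM correlated with one another at Pearson's r of 0.791 to 0.873, which describes libraries that share protein, depth and replicate number. The regions most like SCARNA2 were 113170001 to 113180000 on the minus strand of chromosome X (r = 0.903), 128880001 to 128890000 on the plus strand of chromosome 8 (0.903) and 53770001 to 53780000 on the minus strand of chromosome 1 (0.889). SCARNA7 was most like 30270001 to 30280000 on the plus strand of chromosome 8 (0.973), and SCARNA9 most like 53080001 to 53090000 on the plus strand of chromosome X (0.996). SCARNA28 was most like 10020001 to 10030000 on the minus strand of chromosome 19 (0.990). Ranked by this likeness among all tested regions, SCARNA7 was number 8 for SCARNA2, and the other members ranked lower for one another.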

How the data were processed

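iCLIP recovers RNA crosslinked to a protein and reads the crosslinked nucleotide from where the cDNA stops. Alignment was with Bowtie to GRCh37 (hg19), per the submitters' processing notes, which here give neither its version nor the tool that called the positions. The authors deposited 1 list per library, in which a nucleotide has a transcript, a strand, a whole-number count without normalization, and a last column that holds a p-value or a q-value, at most 0.05. Which of the 2 it is, and whether a count is of reads or of barcode-collapsed cDNAs, is not stated. Values left out by the authors' limits are unknown.

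The lists hold 1162690 positions. That a count covers 11 nt was read from isolated pairs up to 5 nt apart, equal in 94.5% to 100% of cases. Windows were kept from the highest count downwards and summed in strand-specific bins of 10 kb, with the member intervals split off. edgeR 4.0.16 in R 4.3.3 (filterByExpr, TMM, quasi-likelihood F test, Benjamini-Hochberg at 0.05) was run on 10563 of 97624 regions over all 12 libraries, with a biological coefficient of variation of 1.09 and TMM factors of 0.371 to 3.23. DESeq2 1.42.0 was an alternative. The fit was tested on simulated counts. Library shares used a pseudocount of 0.5 and exact permutation tests in Python 3.11.15 with scipy 1.17.1.

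The members and lists were chosen with earlier results of these data known. Named items were the 4 members, their surroundings, per protein the 2 positions of highest mean CPM, and the 3 regions of highest Pearson's r. Gene names of hosts were taken from a RefSeq table of GRCh38, which was used for names and neighbours only. Other scaRNAs, Cajal body proteins and cell type markers could not be placed on hg19 and are not analysed here, and sequences of the 4 RNAs are not shown.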

Additional observations from a re-analysis of the deposited data

How the results depend on the processing

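The number of members called did not move in the FOX2, TDP43, hnRNP M and interaction genotype comparisons, being 0 under every alternative run. Not every alternative tested all 4 members: by the number of windows only SCARNA7 was tested. For the effect common to the proteins the number called was 1 with no filter on low counts (SCARNA2, log2 fold change -1.20, edgeR adjusted p = 0.000875) and 0 under the other alternatives. For TDP43 against FOX2 in P-KO it was 3 with DESeq2 and 3 without TMM, and 1 each with no filter, with at least 20 counts in 2 libraries, with a replicate block, with last-column values of at most 0.01 and without mitochondrial and ribosomal positions. Leaving out single libraries gave 0 to 1. For TDP43 against hnRNP M it was 2 with at least 20 counts and 0 with the robust option, in a fit of only the libraries compared and by the number of windows, where 1 member was tested. Leaving out single libraries gave 0 to 4. In both comparisons with hnRNP M the counts include SCARNA9 and SCARNA28, listed at 0 in hnRNP M P-KO. For FOX2 against hnRNP M it was 1 without TMM, with at least 20 counts, with the robust option, in the fit of only the libraries compared and at 0.01, and 0 by the number of windows. Leaving out single libraries gave 0 to 3. In P-KO cells DESeq2 called 667 of all regions for TDP43 against FOX2, 500 for TDP43 against hnRNP M and 996 for FOX2 against hnRNP M. For the other alternatives the number of all regions called is not given here, so their counts of members are not read against it. The cause of the changes in these counts was not tested.

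The replicate block was added as an alternative because groups share replicate numbers. Deviations of same-numbered P-KO and WT libraries had a correlation across regions of 0.0687 (FOX2), 0.0640 (TDP43) and 0.0278 (hnRNP M). These values are low, although the position profiles of SCARNA2 and SCARNA28 followed the number. The block moved the call of SCARNA2 in TDP43 against FOX2 and no other call of a member.

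Some genotype differences of members, none of them called in the report, changed sign under an alternative. For the common effect SCARNA7 was at -0.14 with at least 20 counts, -0.32 with the replicate block, -0.044 by the sum of all listed counts, -0.32 by the number of windows and -0.33 to 0.89 when single libraries were left out. SCARNA9 was at 0.69 in plain bins, 0.12 at 0.01 and -0.95 to 0.38 without single libraries, and SCARNA28 at -0.78 to 0.086. For FOX2, SCARNA28 was at -0.024 with DESeq2, -0.34 without TMM, -0.47 with at least 20 counts, -0.33 in the fit of only the libraries compared, -0.015 by the sum of listed counts and -0.52 to 2.13 without single libraries. SCARNA7 was at -0.24 by the number of windows, SCARNA9 ranged from -0.10 to 7.33 without single libraries, and SCARNA7 with TDP43 from -2.34 to 0.33. In the exact tests, SCARNA2 over its surroundings was at -0.49 with a pseudocount of 5, the SCARNA7 share at -0.087 by the sum of listed counts and -0.031 at 0.01, and SCARNA7 and SCARNA9 over 10 kb surroundings at -0.13 and -0.12. Without single libraries the shares ranged from -1.34 to 0.83 (SCARNA2), -0.66 to 0.79 (SCARNA7), -0.50 to 1.10 (SCARNA9) and -0.32 to 0.59 (SCARNA28). Over surroundings they ranged from -0.90 to 1.61, -1.11 to 1.67, 0.30 to 2.01 and -0.079 to 1.29. With at least 6 nt shared, 80.2% of FOX2 windows at SCARNA7 and 80.0% at SCARNA28 met a TDP43 window.

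Depth limits these comparisons: the hnRNP M libraries were shallowest and list SCARNA7, SCARNA9 and SCARNA28 rarely or at 0, and counts below the authors' limits are not known.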
